A study of Mus musculus with 11 samples.

Results

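The genes described are 9 chemokine receptors of leukocytes, Ccr1, Ccr2, Ccr6, Ccr7, Cxcr2, Cxcr3, Cxcr5, Cxcr6 and Cx3cr1, out of 31053 genes counted. They were chosen by name, and all 9 were found, each on 1 row of the gene list. Their levels are given as CPM (unique molecular identifiers, UMIs, of the gene per 1000000 UMIs of all genes), over the cells of a class summed within a library. The cells were dissociated whole mouse lung, measured in 11 droplet libraries by 3′ single-cell RNA sequencing. The libraries comprised 1 wild type (WT, +/+), 3 p21Het (p21 heterozygotes, +/-), 5 p21mTert (+/mTert) and 2 p21mTertCD (+/mTertCD). Every group other than WT carries 1 altered p21 allele, and per the series title mTert is induced in p21-positive cells. The labels do not spell out CD, and they do not say whether the libraries of a group came from separate animals. The age label was 18 months for 9 of the libraries, 19 months for p21Het_1 and 20 months for p21mTert_1.

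Chemokine receptors are G protein-coupled receptors that steer leukocytes along gradients of small secreted proteins, the chemokines. Each lineage carries its own combination, so that neutrophils, monocytes, B cells and T cells respond to different ligands and settle in different places. In lung, such receptors are known for neutrophil recruitment from blood, for monocyte supply, and for holding memory T cells near the airways.

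Of 81983 barcodes, 69266 held 1000 to 30000 UMIs with at most 14% from mitochondrial genes, and were kept. A barcode was assigned to 1 of 19 classes when at least 3 of the 8 markers of that class, and at least 2 more than of any other class, had a UMI. This gave 46001 leukocytes in 15 of the classes, while 4246 barcodes were ambiguous and 2848 met no class. None of the 9 receptors served as a marker. T cells had a median of 6 of their own markers and 2 of the next class, and 156 of 13507 T cells sat at the minimum of 3; classical and non-classical monocytes had medians of 7 and 3. Kept libraries held 4721 to 8525 barcodes with median depths of 4133 to 6454 UMIs, and any pair of libraries shared at most 20 barcodes. WT_1, p21Het_1 and p21mTert_1 belong to a first deposit and the other 8 libraries to a later one. The first had median depths of 4133 to 4420 UMIs and median mitochondrial shares of 6.30% to 6.58%. The later had 5122.5 to 6454 UMIs and 2.82% to 4.28%. Both p21mTertCD libraries are in the later deposit with the highest median depths, so genotype is partly aligned with both. Tert stood between 1.90 and 3.28 CPM in the p21mTert and p21mTertCD libraries and between 0.544 and 1.13 in the others, and Cdkn1a (p21) between 118 and 187 in all 11. The p21mTertCD_1 library stood apart, since B cells there were 2.20% of leukocytes, against 20.2% to 52.0% elsewhere, and T cells were 49.0%. The p21Het_3 library held 33.1% neutrophils among its leukocytes, against 4.99% to 18.2% in the other 10.

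Of the receptors, 5 lie on chromosome 9 of GRCm38, among them Cxcr6 (chr9:123806475-123811760, plus strand), Ccr1 (chr9:123962124-123968692, minus strand) and Ccr2 (chr9:124101950-124113557, plus strand), which fall within 307 kb. Cx3cr1 (chr9:119901616-120069879, minus strand) and Cxcr5 (chr9:44511787-44561877, minus strand) lie elsewhere on it. Cxcr2 is at chr1:74153989-74161246 (plus strand), Ccr7 at chr11:99144196-99155077 (minus strand), Ccr6 at chr17:8236043-8257141 (plus strand) and Cxcr3 at chrX:101731535-101734269 (minus strand). RefSeq's promoter table for GRCm38.p6 held 7 of the 9 genes, all but Ccr7 and Cxcr5. The 150 bases just upstream of the gene are shown for 4 of them, to set the neutrophil genes Cxcr2 and Ccr1 beside Cxcr6 of T and innate lymphoid cells and Ccr6 of B cells. They are written 5′ to 3′ on the strand of the gene, and capitals mark a RUNX motif (TGTGGT on either strand).
Cxcr2 (chr1:74153839-74153988, plus strand): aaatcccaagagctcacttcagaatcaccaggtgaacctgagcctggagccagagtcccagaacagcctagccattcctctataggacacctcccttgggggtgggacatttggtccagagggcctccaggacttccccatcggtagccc
Ccr1 (chr9:123968693-123968842, minus strand): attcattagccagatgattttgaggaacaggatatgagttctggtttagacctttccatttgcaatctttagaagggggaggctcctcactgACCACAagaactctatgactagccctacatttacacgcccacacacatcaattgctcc
Cxcr6 (chr9:123806325-123806474, plus strand): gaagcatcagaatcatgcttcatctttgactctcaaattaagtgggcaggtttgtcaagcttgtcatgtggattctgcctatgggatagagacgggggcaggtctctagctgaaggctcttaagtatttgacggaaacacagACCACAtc
Ccr6 (chr17:8235893-8236042, plus strand): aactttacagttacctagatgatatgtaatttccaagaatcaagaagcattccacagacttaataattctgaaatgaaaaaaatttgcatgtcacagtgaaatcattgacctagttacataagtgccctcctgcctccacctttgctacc

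On both strands of the 250 bases upstream of each RefSeq start, 4 motifs were searched, with positions counted from that start. The stretches shown end where the gene begins in GENCODE, which for Cxcr6 is 2 bases before the RefSeq start. The RUNX motif TGTGGT was found 53 to 58 bases upstream in Ccr1, 5 to 10 in Cxcr6, 105 to 110 in Cxcr3 and 49 to 54 in Cx3cr1, and 14.0% of 32851 promoters of the same length hold it. An ETS motif (AGGAAGT, in 7.69% of promoters) was found in Ccr6 at 218 to 224 bases, outside the stretch shown, and in Cxcr3 at 10 to 16 and at 224 to 230 bases. A T-box motif (GGTGTGA, in 3.33%) and a C/EBP motif (TTGCNNAA, in 9.56%) were found in none of the 7 genes, and Cxcr2 held none of the 4. The matches found did not overlap one another, and a match describes letters only.

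Across classes the 9 receptors divided into a neutrophil pair (Cxcr2, Ccr1), a monocyte pair (Ccr2, Cx3cr1), a B cell pair (Cxcr5, Ccr6), Ccr7 of mature dendritic, B and T cells, and a T cell pair (Cxcr3, Cxcr6). Each was higher in the lineage it was assigned to than in all other leukocytes pooled in 11 of 11 libraries, by 3.26 to 8.14 on the log2(CPM + 1) scale. The exact 2-sided sign-flip test over the 11 libraries gave p = 0.000977 for each of the 9, the smallest it can give. The lineages were assigned with earlier results of these data known, so these p-values add no independent support for the assignment. Single classes within that pool could be as high or higher, as ILC2 were for Cxcr6.

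**Figure D1:**
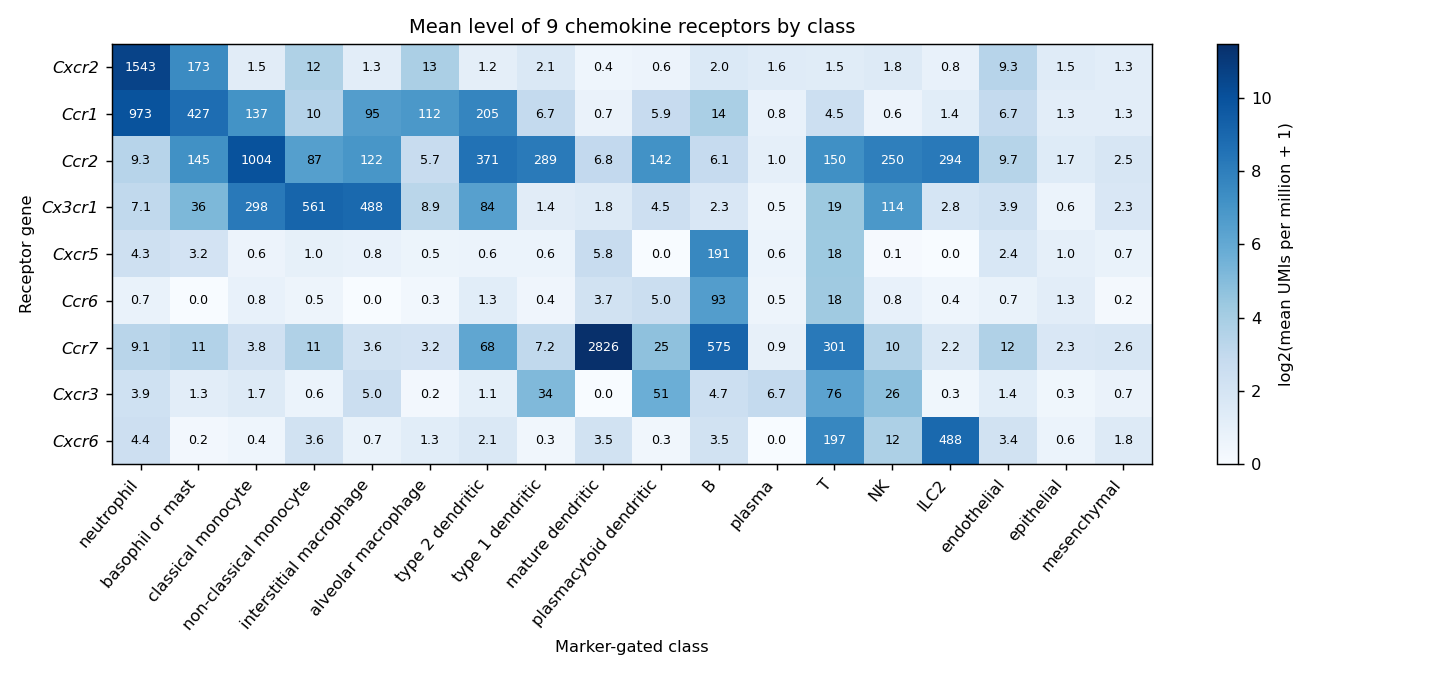
Mean level of the 9 receptors (rows) in 18 marker-gated classes (columns), with the mean CPM over libraries printed in each cell and log2(mean + 1) as colour. Cxcr2 stands at 1543 in neutrophils and Ccr7 at 2826 in mature dendritic cells, while Ccr2 and Cx3cr1 each reach several myeloid and lymphoid classes.

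Cxcr2, the receptor for the neutrophil-attracting chemokines Cxcl1, Cxcl2 and Cxcl5, had 87.0% of its 43854 UMIs in neutrophils. In neutrophils it stood at 1226 CPM in WT, at 1388, 1103 and 1914.5 in p21Het, at 1186, 1514, 1708, 1532 and 1832 in p21mTert, and at 1699 and 1870.0 in p21mTertCD. The genotype groups overlapped, with the lowest and the highest value both in p21Het. Against all other leukocytes the difference was 8.14 ± 0.354 (log2, SD, n = 11). The next class was basophils or mast cells at 173 ± 37.3 (SD, n = 10), below neutrophils in 10 of 10 libraries and above the class after it, alveolar macrophages at 13.4 ± 4.79 (SD, n = 11), in 10 of 10. The 8 neutrophil markers summed to 0.0 to 411 CPM in basophils or mast cells, against 14068 to 23003 in neutrophils, and the part of neutrophil RNA in the basophil value was not tested.

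Ccr1, which binds Ccl3, Ccl5, Ccl6 and Ccl9, was broader, with 52.9% of its UMIs in neutrophils, 12.2% in alveolar macrophages and 10.5% in classical monocytes. In neutrophils it stood at 1067 CPM in WT, at 997, 614 and 990.45 in p21Het, at 1004, 1053, 1011, 1025 and 999 in p21mTert, and at 852 and 1092 in p21mTertCD. The 5 p21mTert libraries lay close together, and p21Het_2 was the lowest of the 11. The order of mean levels was neutrophils at 973 ± 134 (SD, n = 11), basophils or mast cells at 427 ± 181 (n = 10), type 2 dendritic cells at 205 ± 68.8, classical monocytes at 137 ± 45.2, alveolar macrophages at 112 ± 24.2 and interstitial macrophages at 94.8 ± 27.9 (each SD, n = 11). From type 2 dendritic cells to interstitial macrophages, each class exceeded the next in 8 of 11 libraries, so neighbours in that stretch differed by about their spread.

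Neutrophils with a UMI of more activation markers (Cxcl2, Ccl3, Ccl4, Icam1, Cd274 and Tnf) than mature neutrophil markers (a list that includes Retnlg, Mmp8, Mmp9, Lcn2 and Ltf) were compared with those for which the reverse held. Cxcr2 was lower in the activated-marker cells, by -0.41 ± 0.476 (log2, SD, n = 11), lower in 9 of 11 libraries (exact sign-flip test, p = 0.0176). Ccr1 was higher by 0.31 ± 0.319, in 9 of 11 libraries (exact sign-flip test, p = 0.0127). The marker lists were chosen with earlier results of these data known, so these p-values add no independent support for a difference by state. The activated-marker cells numbered only 5 to 42 per library. Cxcr2 averaged 1245 CPM in them and 1564 in the mature-marker cells, and Ccr1 1203 and 956.

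Shares of cells with a UMI depend on depth, so cells were thinned to 1000 UMIs. Of thinned neutrophils, 76.3% ± 6.99 (SD, n = 11) had a Cxcr2 UMI and 60.8% ± 5.65 a Ccr1 UMI. In B cells, used for comparison, these shares were 0.227% and 0.819%. B cells averaged 2.00 CPM of Cxcr2 and 13.6 of Ccr1, so they were free of neither, and the source was not tested. Without thinning the neutrophil shares were 96.2% and 92.5%, and the B cell shares 0.726% and 4.07%, at median depths of 3818 and 4103 UMIs.

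Ccr2, the receptor through which monocytes leave bone marrow and enter tissue in response to Ccl2, Ccl7 and Ccl12, was led by classical monocytes. There it stood at 1021 CPM in WT, at 1062, 699.8 and 1414 in p21Het, at 1028, 795, 771, 717 and 1055 in p21mTert, and at 1193.5 and 1282 in p21mTertCD. Both p21mTertCD libraries lay above all 5 p21mTert libraries, and the 3 p21Het libraries spanned the range of both groups. The difference between classical monocytes and all other leukocytes was 3.58 ± 0.307 (log2, SD, n = 11).

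Below classical monocytes Ccr2 spread over several classes of lymphoid and dendritic cells. It averaged 371 ± 76.7 CPM in type 2 dendritic cells, 293.5 ± 66.4 in group 2 innate lymphoid cells (ILC2), 289 ± 60.9 in type 1 dendritic cells, 249.5 ± 65.6 in NK cells and 149.7 ± 33.4 in T cells (each SD, n = 11). ILC2 exceeded type 1 dendritic cells in 5 of 11 libraries, so that pair did not differ beyond its spread. T cells held 21.1% of all Ccr2 UMIs, next to 45.5% in classical monocytes, with 13507 T cells and 2192 classical monocytes in all. Ambiguous barcodes, 6.13% of those kept and left out of every class, held 15.8% of Ccr2 UMIs and 18.1% of Cx3cr1 UMIs.

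Cx3cr1 is the receptor for fractalkine (Cx3cl1) and marks patrolling monocytes and tissue macrophages. In non-classical monocytes it stood at 511 CPM in WT, at 474, 391 and 608 in p21Het, at 529, 532, 579, 686 and 682 in p21mTert, and at 424 and 759 in p21mTertCD. The 2 p21mTertCD libraries were near the bottom and at the top of the 11. Interstitial macrophages, at 488 ± 131, were not separable from non-classical monocytes at 561 ± 115 (SD, n = 11), which were higher in 6 of 11 libraries. Classical monocytes followed at 298 ± 66.2, below interstitial macrophages in 10 of 11 libraries, and NK cells at 114 ± 51.9.

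The monocyte pair was graded in opposite order across the 2 monocyte classes: Ccr2 averaged 1004 CPM in classical and 87.0 in non-classical monocytes, and Cx3cr1 298 and 561. After thinning, a Cx3cr1 UMI was found in 39.5% ± 5.25 of non-classical monocytes and 31.5% ± 8.35 of interstitial macrophages, against 0.102% of B cells. Unthinned shares were 86.8%, 76.0% and 0.644%, at median depths of 6842, 10634 and 4103 UMIs. A Ccr2 UMI was found in 58.3% ± 9.63 of thinned classical monocytes, 6.74% ± 4.22 of non-classical monocytes and 0.358% of B cells, and without thinning in 97.0%, 22.5% and 1.51%, with a median of 12197 UMIs in classical monocytes.

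Cxcr5 guides B cells and follicular helper T cells into follicles along Cxcl13. In B cells it stood at 205 CPM in WT, at 229, 143 and 197 in p21Het, at 224, 148, 151.5, 198 and 205 in p21mTert, and at 172 and 224 in p21mTertCD. The groups overlapped over nearly the whole range. B cells held 82.9% of Cxcr5 UMIs, and T cells, at 18.3 ± 3.68 (SD, n = 11), were below B cells in 11 of 11 libraries.

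Ccr6, the receptor for Ccl20, is carried by B cells and by T cells of the interleukin-17 type. In B cells it stood at 95.9 CPM in WT, at 78.0, 122 and 84.3 in p21Het, at 107, 77.3, 136, 89.2 and 70.5 in p21mTert, and at 58.8 and 101 in p21mTertCD. The lowest value came from p21mTertCD_1, where only 43 UMIs in 103 B cells stood behind it. B cells held 74.7% of Ccr6 UMIs and T cells 16.2%, and the T cell mean of 17.6 ± 8.46 was below that of B cells in 11 of 11 libraries.

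Thinned to 1000 UMIs, 17.4% ± 2.27 of B cells had a Cxcr5 UMI and 7.82% ± 2.28 a Ccr6 UMI (SD, n = 11). In neutrophils, taken as background, the shares were 0.316% and 0.0476%. Unthinned shares were 54.9% and 28.3% in B cells and 1.44% and 0.181% in neutrophils, at median depths of 4103 and 3818 UMIs.

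Ccr7 leads mature dendritic cells and naive lymphocytes into lymph nodes along Ccl19 and Ccl21. Its level in mature dendritic cells was 2826 ± 577 CPM (SD, n = 11), between 2131 in p21mTertCD_1 and 4129 in p21Het_1, although each library held only 5 to 54 such cells. B cells followed at 575 ± 191 and T cells at 301 ± 127, and the order from dendritic to B to T cells held in 11 of 11 libraries at each step. B cells held 53.8% of 82641 Ccr7 UMIs, T cells 31.1% and mature dendritic cells 6.54%. After thinning, a Ccr7 UMI was found in 78.0% ± 13.5 of mature dendritic cells, 41.1% ± 9.11 of B cells, 17.2% ± 7.76 of T cells and 0.753% of NK cells, and without thinning in 89.2%, 81.9%, 37.9% and 2.08%. Median depths were 12122, 4103, 6072 and 4768 UMIs.

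In T cells Ccr7 stood at 367 CPM in WT, at 408, 225 and 388 in p21Het, at 478, 249, 215, 338 and 255 in p21mTert, and at 14.7 and 371 in p21mTertCD. The p21mTertCD_1 library was the lowest of the 11, with every other library at 215 or more, and its partner lay inside the range of the other groups. The effector marker Gzmk stood in T cells at 209 in that library and at 19.2 to 105 elsewhere. In B cells Ccr7 was also lowest in p21mTertCD_1, at 253, with the other 10 libraries between 352 and 811.

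Cxcr3 is the receptor for the interferon-induced chemokines Cxcl9 and Cxcl10 and marks type 1 effector T cells. In T cells it stood at 73.3 CPM in WT, at 68.8, 49.7 and 66.1 in p21Het, at 69.1, 73.0, 73.5, 89.3 and 98.1 in p21mTert, and at 84.9 and 91.0 in p21mTertCD. All 3 p21Het libraries were the lowest of the 11. T cells held 79.0% of Cxcr3 UMIs, and the classes after them were plasmacytoid dendritic cells at 50.8 ± 16.9 (SD, n = 10), type 1 dendritic cells at 34.3 ± 8.02 and NK cells at 26.0 ± 16.5 (SD, n = 11). T cells exceeded plasmacytoid dendritic cells in 8 of 10 libraries.

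Cxcr6 binds Cxcl16 and is carried by tissue-resident T cells and innate lymphoid cells. In T cells it stood at 220 CPM in WT, at 248, 137 and 184 in p21Het, at 161, 135, 165, 235 and 261 in p21mTert, and at 284 and 142 in p21mTertCD. The 2 p21mTertCD libraries stood at the top and near the bottom of the range. T cells held 87.4% of its UMIs, and the level in CPM was highest in ILC2, at 488 ± 185, above T cells in 11 of 11 libraries (T cell mean 197 ± 54.0), with 9 to 52 ILC2 per library.

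In thinned cells a Cxcr6 UMI was found in 35.0% ± 14.2 of ILC2, 16.3% ± 3.97 of T cells and 0.153% of B cells, and a Cxcr3 UMI in 7.52% ± 1.65 of T cells and 0.479% of B cells. Without thinning the Cxcr6 shares were 74.1%, 42.3% and 1.01% and the Cxcr3 shares 32.4% and 1.94%. Median depths were 5125 UMIs in ILC2, 6072 in T cells and 4103 in B cells.

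Within T cells the receptors divided by state. Cells with a UMI of more naive markers (a list that includes Lef1, Satb1, Igfbp4, Dapl1 and Tcf7) than effector markers (Ccl5, Nkg7, Gzmk, S100a4, Id2, Il2rb) averaged 641 ± 170 CPM of Ccr7, and cells with more effector markers 104 ± 69.2 (SD, n = 11). Ccr7 was lower in the effector-marker cells in 11 of 11 libraries, by -2.95 ± 0.956 on the log2 scale. Cxcr3 rose from 35.8 ± 15.3 to 101 ± 17.5, by 1.55 ± 0.573, and Cxcr6 from 61.0 ± 44.7 to 286 ± 74.2, by 2.37 ± 0.782, each in 11 of 11 libraries. The exact sign-flip test gave p = 0.000977 for each of the 3, the smallest it can give. The marker lists hold none of the 3 receptors but were chosen with earlier results of these data known. These p-values therefore add no independent support for the division by state. In p21mTertCD_1, which had 48 naive-marker and 2161 effector-marker T cells, the naive-marker cells were the lowest of the 11 libraries in Ccr7 (268) and the highest in Cxcr3 (74.5) and Cxcr6 (190).

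**Figure D2:**
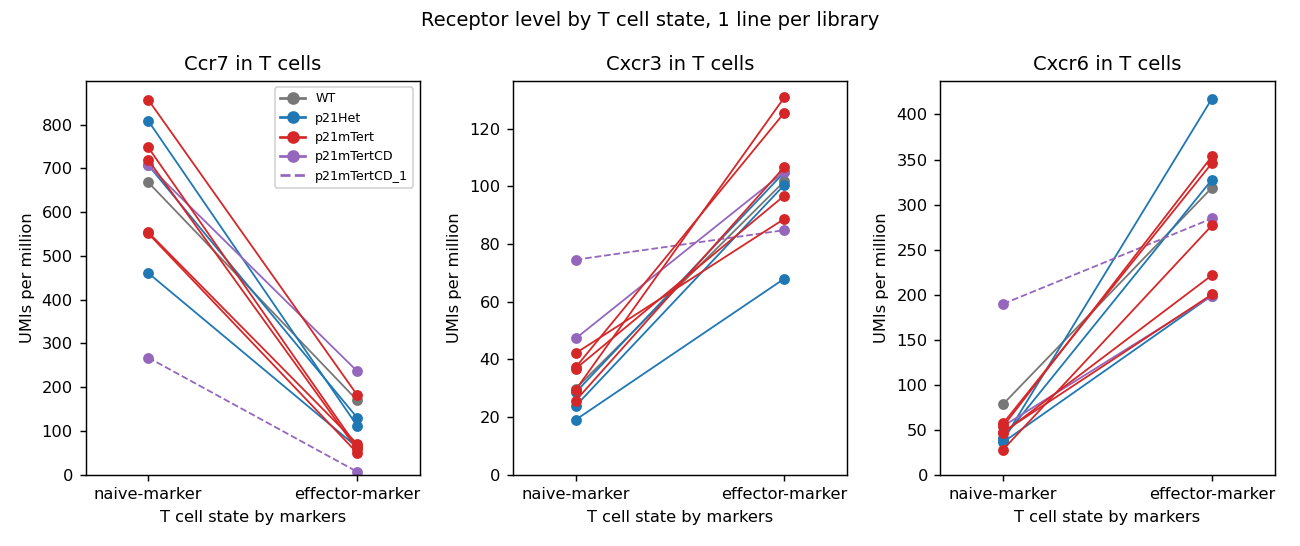
Level of Ccr7, Cxcr3 and Cxcr6 (CPM, vertical axis) in naive-marker and effector-marker T cells, 1 line per library coloured by genotype label, with p21mTertCD_1 dashed. Every line of Ccr7 falls and every line of Cxcr3 and Cxcr6 rises, and the p21mTertCD_1 line starts lowest for Ccr7 and highest for the other two.

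T cell subsets are described without a test. Gamma-delta T cells, gated by at least 2 of Trdc, Tcrg-C1, Tcrg-V6, Trdv4 and Cd163l1 and no Cd4 or Cd8 UMI, had the highest mean of Cxcr6, at 847 ± 226 CPM, and of Ccr2, at 510 ± 165 (SD, n = 11). Cxcr6 averaged 201 ± 82.7 in Cd4, 78.7 ± 38.3 in Cd8 and 60.1 ± 41.9 in Foxp3 cells, and the lowest gamma-delta library, at 474, was above the highest Cd4 library, at 377. T cells with no Cd4 or Cd8 UMI that met neither the gamma-delta nor the Foxp3 gate were a further set. Their Cxcr6 stood at 467 in WT and averaged 313 in p21Het, 368 in p21mTert and 401 in p21mTertCD. Their highest library, at 586, was above the lowest gamma-delta library. Ccr7 was highest in Cd8 cells, at 430.5 ± 173, followed by Cd4 cells at 288 ± 149 and Foxp3 cells at 140 ± 103, with gamma-delta cells at 54.0 ± 71.8. Cxcr3 lay between 66.6 ± 20.2 in Cd8 and 102 ± 55.9 in gamma-delta cells, a gap within its spread.

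Ccr6 stood in Cd8 cells at 1.02 ± 0.809, and averaged 39.2 ± 24.1 in Cd4, 58.9 ± 41.7 in Foxp3 and 32.2 ± 24.6 in gamma-delta cells, which overlapped. Gamma-delta cells numbered 11 to 85 and Foxp3 cells 20 to 126 per library. Cx3cr1 in T cells was uneven among libraries of 1 genotype: it stood at 48.4 in p21mTert_2, 60.1 in p21mTert_5 and 44.5 in p21mTertCD_1, and between 4.08 and 14.5 in the other 8. In Cd8 cells of those 3 libraries it stood at 73.2, 105 and 65.7, against 4.45 to 20.8 elsewhere.

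**Figure D3:**
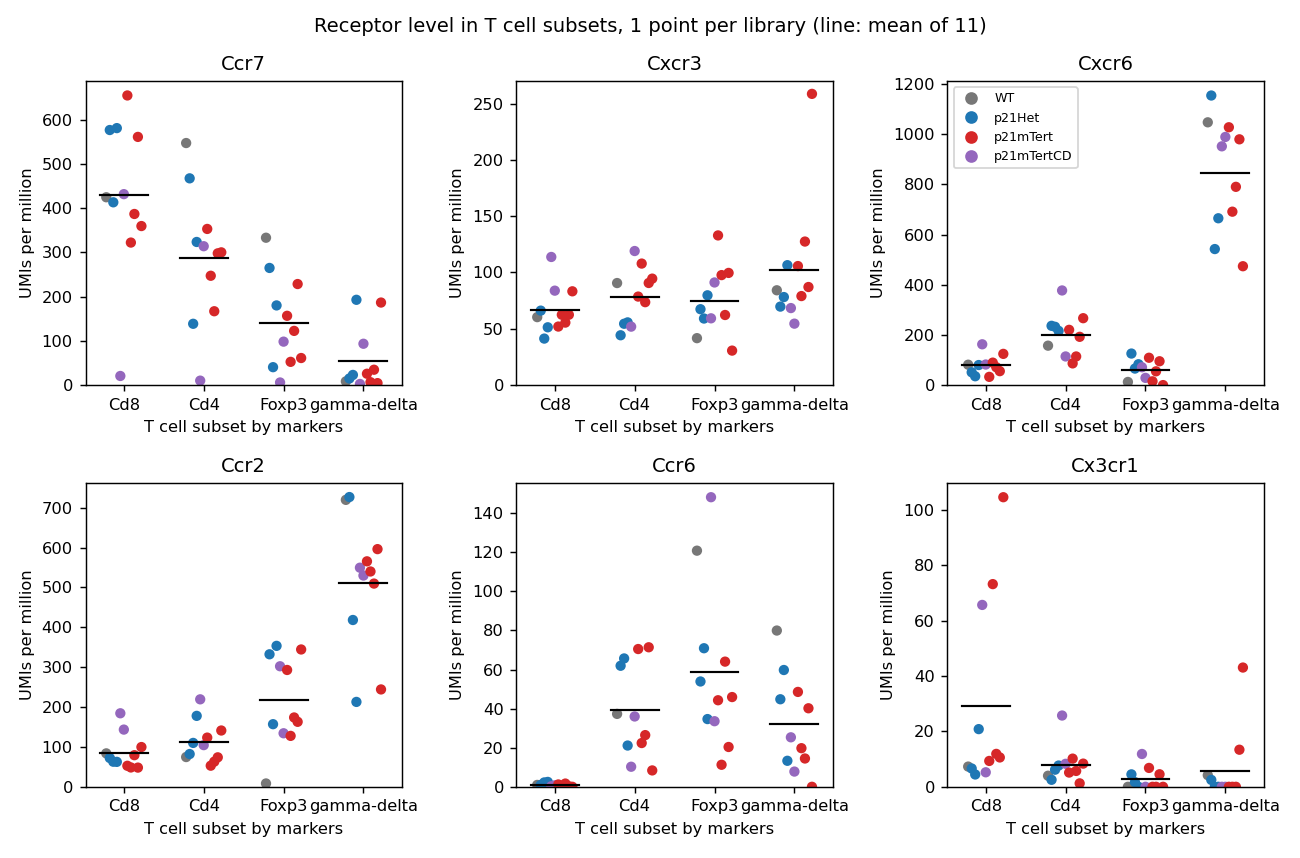
Level of 6 receptors (CPM, vertical axis) in Cd8, Cd4, Foxp3 and gamma-delta T cells, 1 point per library coloured by genotype label and a line at the mean of 11. The gamma-delta points of Cxcr6, with a mean of 847, lie above those of the other subsets shown, and 3 Cx3cr1 points in Cd8 cells stand at 65.7 or more. T cells that met none of these subsets are not shown.

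Receptors also differed in which T cells carried them together, described here without a test and without thinning. Of T cells with a Cxcr6 UMI, 21.4% ± 13.9 (SD, n = 11) had a Ccr7 UMI, and of those without, 48.9% ± 18.8, the former being lower in every one of the 11 libraries. A Ccr2 UMI was found in 57.0% ± 9.14 of the cells with Cxcr6 and in 20.99% ± 9.96 of those without, higher in 11 of 11. Median depths were 6053 UMIs with and 5728 without Cxcr6. Cxcr3 was less even: a Ccr7 UMI was found in 33.0% ± 14.8 of T cells with Cxcr3 and 40.1% ± 16.8 of those without. The share was higher with Cxcr3 in 4 of 11 libraries.

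Over 19 classes and 12711 other genes, the genes whose mean levels most resembled each receptor were ranked by Pearson's r of log2(CPM + 1), as a description, since classes share libraries and depth. For Cxcr6 they were Podnl1 (r = 0.979), Icos (0.961) and Bcl11b (0.952), and for Cxcr2 Gm17619 (0.960), Acod1 (0.942) and 4933432I03Rik (0.940). For Ccr1 they were Nlrp3 (0.908), Lilrb4a (0.881) and Igsf6 (0.877), and for Ccr2 Padi2 (0.883), Iqgap2 (0.845) and, below these, Pstpip1. For Cx3cr1 they were Ms4a6b (0.833), Clec4a1 (0.832) and Itgam (0.818). For Ccr6 they were Blk (0.869), Gm30054 (0.820) and Tmem108 (0.808), and for Cxcr5 Klhl14 (0.821), Crisp3 (0.813) and Ffar1 (0.807). For Ccr7 they were Slamf1 (0.844), Il21r (0.793) and Gins3 (0.768), and for Cxcr3 Cd28 (0.737), Gpr18 (0.730) and Cd8b1 (0.719). A high r did not require the same leading class. Ms4a6b and Slamf1 were highest in T cells, Itgam in neutrophils, and Padi2, Nlrp3 and Acod1 in basophils or mast cells. Others led where the receptor did, such as Blk in B cells.

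The ligands were read in the same classes, for 18 of 20 listed, since the symbols of Ccl19 and Ccl21a stand on 2 rows each. Cxcl2, a ligand of Cxcr2, averaged 3964 ± 1302 CPM in neutrophils themselves and 2135 ± 567 in interstitial macrophages (SD, n = 11). Interstitial macrophages also led in the Ccr2 ligands Ccl2 (822 ± 310), Ccl7 (848 ± 331) and Ccl12 (519 ± 150), and in the Cxcr5 ligand Cxcl13 (1168 ± 693). Cxcl16, the ligand of Cxcr6, was highest in mature dendritic cells at 970 ± 153 and next in interstitial macrophages at 593 ± 77.1. Cx3cl1 was highest in endothelial cells at 53.8 ± 13.9, and Ccl20, the ligand of Ccr6, in epithelial cells at 15.1 ± 20.8. Of the other receptors, Ccr9 led in plasmacytoid dendritic cells (1526 ± 357, n = 10) and Xcr1 in type 1 dendritic cells (382 ± 50.2).

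The study's genotype comparison asks whether mTert expressed in p21-positive cells changes lung cells, with p21Het and p21mTertCD as the other altered p21 alleles. None of the 9 receptors passed the test in any of the 5 lineages fitted. In each of the 3 contrasts, edgeR's quasi-likelihood test with Benjamini-Hochberg adjustment called 0 of 33 receptor and lineage pairs at an adjusted p under 0.05. Unadjusted, 4 of 33 were under 0.05 for p21mTert minus p21Het. For p21mTert minus p21mTertCD the count was 5, and for p21mTertCD minus p21Het it was 3. Of all genes tested, 3.54% to 8.13%, 3.92% to 12.1% and 3.20% to 14.3% were under 0.05 in the 5 lineages, in that order. In their own lineages (T cells for Ccr7), 1 of 9 receptors was under 0.05 unadjusted in each contrast, and DESeq2 called 0, 0 and 1 of 9 in that order. WT has 1 library and entered no test. Contrasts share their groups, and their values are given side by side only.

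**Figure D4:**
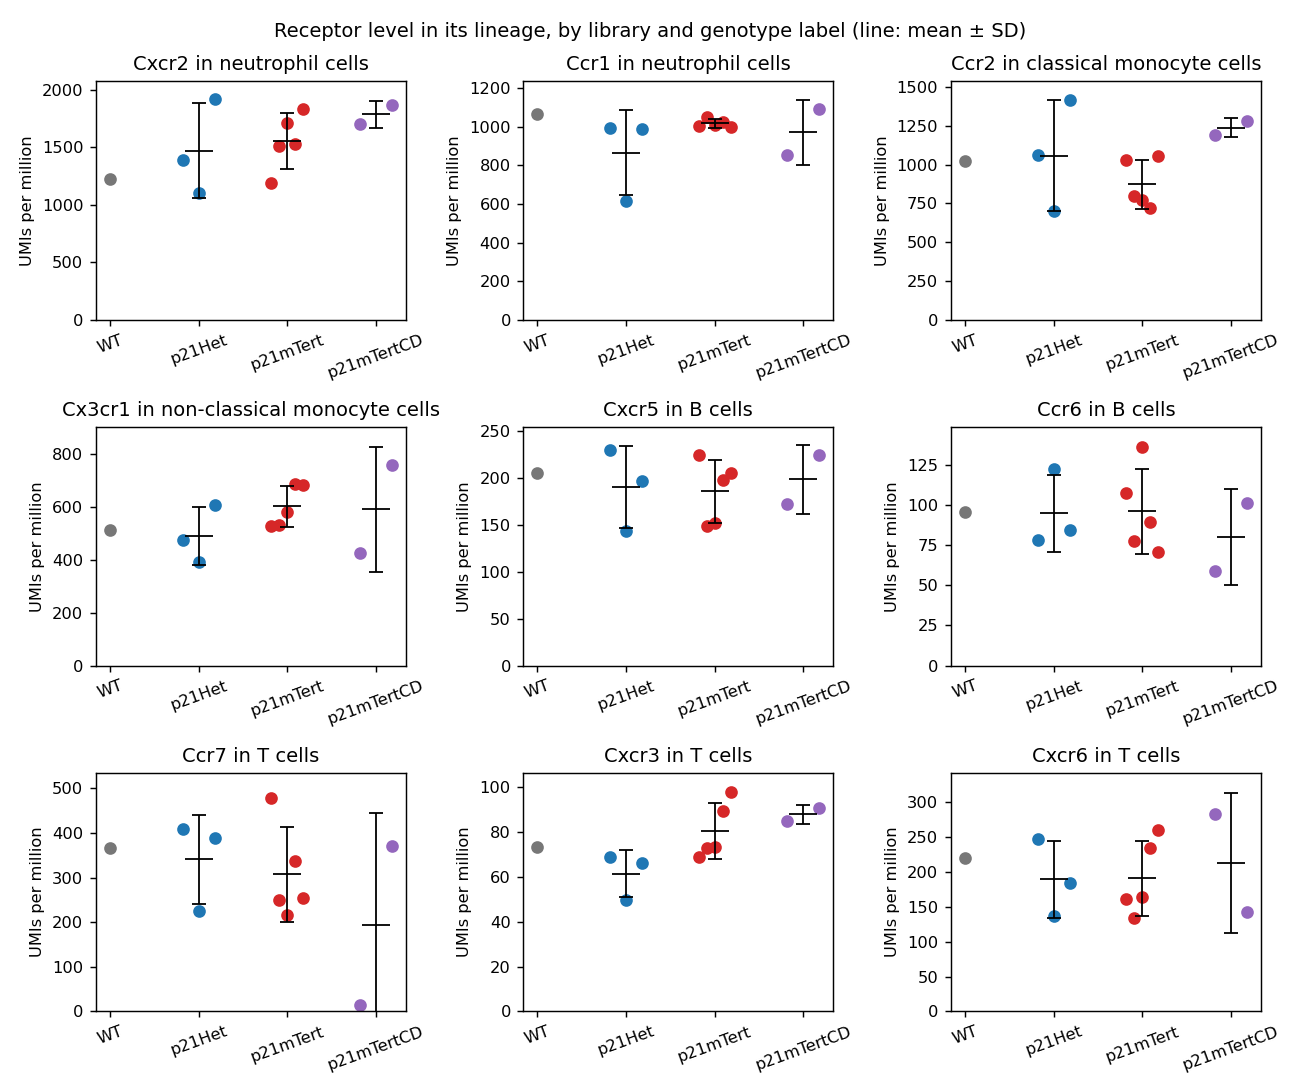
Level of each receptor in its lineage (CPM, vertical axis from 0) by genotype label, 1 point per library, with a dash and bars for mean ± SD where a group has more than 1 library (a bar that would pass below 0 ends at the axis). The groups overlap in most panels, and in T cells the p21mTertCD_1 point of Ccr7 lies at 14.7 while the p21Het points of Cxcr3 lie lowest.

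In neutrophils, edgeR called 0% of 7212 genes for p21mTert minus p21Het. The share was 0.541% for p21mTert minus p21mTertCD, and it was 0.208% for p21mTertCD minus p21Het. The first of these was 0 genes, with 586 at an unadjusted p under 0.05 and 22 called by DESeq2. Cxcr2 changed by -0.04 (SE 0.187), -0.27 (SE 0.212) and 0.23 (SE 0.233) on the log2 scale in the same order, with edgeR adjusted p of 0.978, 0.985 and 1.00. The 95% intervals reached from -0.44 to 0.36, from -0.72 to 0.18 and from -0.27 to 0.73. For Ccr1 the changes were 0.12 (SE 0.142), -0.01 (SE 0.162) and 0.12 (SE 0.176), none called by edgeR, with intervals from -0.19 to 0.42, from -0.35 to 0.34 and from -0.26 to 0.50. With the replicate number as a block, Cxcr2 changed by -0.52 for p21mTert minus p21mTertCD (edgeR, unadjusted p = 0.0192, adjusted p = 0.684). For p21mTertCD minus p21Het it then changed by 0.44 (edgeR, unadjusted p = 0.0405, adjusted p = 0.926). The numbers did not pair the samples in neutrophils. Same-numbered libraries correlated at 0.127 and -0.020 in the first of these contrasts and at -0.171 and -0.209 in the second. The block also gives p21mTert_4 and p21mTert_5, whose numbers no other library has, no weight in the contrasts. Summed over all leukocytes, by contrast, Cxcr2 stood at 365 CPM in p21Het_3 and between 32.2 and 170 in the other libraries, beside the 33.1% share of neutrophils there.

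In classical monocytes, edgeR called 0.123%, 0.145% and 0.869% of 8975 genes in the same order of contrasts. Ccr2 changed by -0.20 (SE 0.167, adjusted p = 0.883), -0.52 (SE 0.188, adjusted p = 0.632) and 0.32 (SE 0.208, adjusted p = 1.00), by edgeR. The unadjusted p of p21mTert minus p21mTertCD was 0.0151, with all 5 p21mTert libraries below both p21mTertCD libraries, and the later deposit alone, which holds 8 libraries, gave -0.57 (adjusted p = 0.583). Without a filter on low counts, the edgeR adjusted p of that difference was 0.00187, at a change of -0.56. The classical monocyte marker Ly6c2 stood there at 1390 to 1482 CPM in p21mTertCD and at 836 to 976 in p21mTert. In p21Het, whose Ccr2 spanned the range of both groups, Ly6c2 stood at 832 to 871, and in WT at 831. Its part in the Ccr2 values was not tested.

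In non-classical monocytes, edgeR called 0.0114%, 0.411% and 0.297% of 8760 genes. Cx3cr1 changed by 0.31 (SE 0.169), -0.02 (SE 0.191) and 0.33 (SE 0.208), with edgeR adjusted p of 0.688, 0.994 and 0.946. Deviations of same-numbered p21mTert and p21Het libraries correlated weakly in these cells (r = 0.254, 0.118 and 0.108). Differently numbered libraries were not compared, so a pairing is not shown. With the replicate number as a block, edgeR called 0 genes for p21mTert minus p21Het (410 at an unadjusted p under 0.05) in place of 1. Cx3cr1 then changed by 0.23 (edgeR adjusted p = 0.978). The block gives p21mTert_4 and p21mTert_5 no weight in the contrasts. Without the block, the lowest unadjusted p among the receptor tests by edgeR belonged to Ccr2 in these cells, for p21mTert minus p21mTertCD. The change was -1.74 (SE 0.407, unadjusted p = 0.000763, edgeR adjusted p = 0.116). With the block it was -1.98 (unadjusted p = 0.000134, edgeR adjusted p = 0.124). For this contrast the numbers did not pair the samples, since same-numbered libraries correlated at -0.0144 and -0.122. Ccr7, at a mean of 11.4 CPM here, then changed by -2.27 for p21mTert minus p21Het (unadjusted p = 0.000160, edgeR adjusted p = 0.467). Ccr2 stood there at 112 CPM in WT, at 121, 34.2 and 128 in p21Het, at 89.4, 22.1, 44.4, 52.4 and 43.4 in p21mTert, and at 179 and 131 in p21mTertCD. The 2 p21mTertCD libraries were the highest of the 11. Markers of classical monocytes summed to 1599 to 1691 in the same cells of p21mTertCD, to 937 to 1256 in p21mTert, to 1014 to 1325 in p21Het and to 973 in WT. Ly6c2 alone stood at 33.2 to 41.5, 7.12 to 23.4, 10.6 to 18.3 and 40.0 in the same order, and their part in the Ccr2 difference was not tested.

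In B cells, edgeR called 0.0514%, 0.00857% and 0% of 11666 genes. For the last, 373 genes were under an unadjusted p of 0.05 and DESeq2 called 1. Cxcr5 changed by -0.03 (SE 0.131), -0.18 (SE 0.154) and 0.14 (SE 0.168), and Ccr6 by 0.00 (SE 0.260), 0.14 (SE 0.320) and -0.14 (SE 0.345), with edgeR adjusted p of 0.999 or more for each. The 103 B cells of p21mTertCD_1 limit both contrasts that use it.

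In T cells, edgeR called 0.0164%, 0.0492% and 0.0902% of 12197 genes. Cxcr3 was 0.39 (SE 0.125) higher in p21mTert than in p21Het (unadjusted p = 0.00926, adjusted p = 1.00) and 0.59 (SE 0.151) higher in p21mTertCD than in p21Het (unadjusted p = 0.00255, adjusted p = 0.135), by edgeR, and was called in neither. Every p21mTert and p21mTertCD library was above every p21Het library, by little for the first deposit (p21mTert_1 at 69.1 CPM and p21Het_1 at 68.8). The WT library, at 73.3, was also above every p21Het library. In the later deposit alone the 2 changes were 0.50 and 0.64, and DESeq2 gave 0.59 with an adjusted p of 0.0266 for the second. The difference between p21mTert and p21mTertCD was -0.19 (SE 0.138, edgeR adjusted p = 0.605). Markers of NK cells summed in T cells to 132 to 328 CPM in p21Het, 203 to 727 in p21mTert and 367 to 682 in p21mTertCD. In WT they summed to 217, and their part in the Cxcr3 values was not tested.

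Effector-marker cells were 2161 of 2294 T cells in p21mTertCD_1 but 724 of 1444 in p21mTertCD_2, and they were 362 of 761, 745 of 1320 and 401 of 871 in the p21Het libraries. In p21mTert they were 688 of 1378, 844 of 1395, 788 of 1314, 605 of 1135 and 451 of 670. Within effector-marker cells Cxcr3 stood at 84.8 and 105 CPM in p21mTertCD, at 88.7 to 131 in p21mTert and at 68.0 to 105 in p21Het, so that the groups overlapped. Within naive-marker cells it stood at 74.5 and 47.2 in p21mTertCD, at 25.7 to 42.1 in p21mTert and at 19.0 to 28.6 in p21Het. Genotypes were not tested within states, and the part of T cell state in the Cxcr3 values was not tested.

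Cxcr6 in T cells changed by 0.02 (SE 0.248), -0.22 (SE 0.279) and 0.24 (SE 0.307), with 95% intervals from -0.53 to 0.56, from -0.83 to 0.40 and from -0.44 to 0.91, and none was called by edgeR. Ccr7 in T cells changed by -0.14 (SE 0.666), 0.57 (SE 0.788) and -0.72 (SE 0.852), with edgeR adjusted p of 1.00, 0.803 and 0.739. The p21mTertCD contrasts of Ccr7 rest on which library stands for the group. Without p21mTertCD_1 they were -0.38 and 0.24, not called by edgeR (adjusted p = 0.894 and 0.900), and without p21mTertCD_2 they were 4.35 and -4.49, called at adjusted p of 0.00126 and 0.00111, with the lone library then assumed to vary like the other groups.

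**Figure D5:**
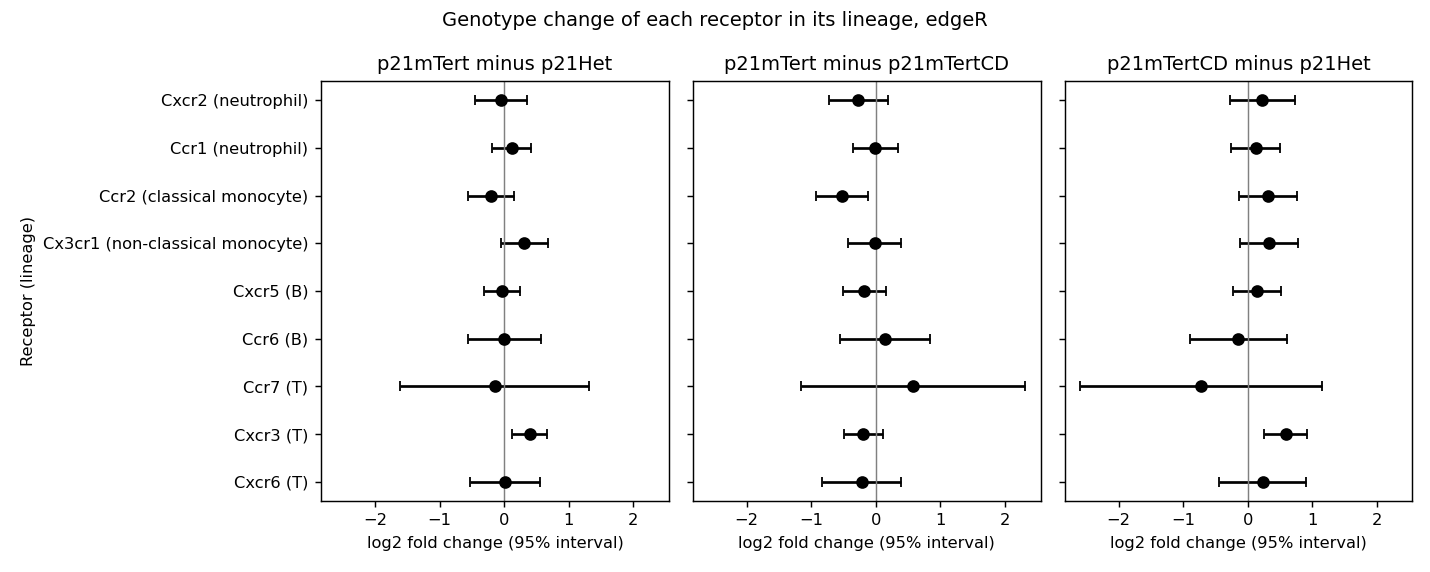
Fitted log2 fold change (horizontal axis) with its 95% interval for each receptor in its lineage, in the 3 contrasts. Intervals of 2 receptors do not span 0, Ccr2 in p21mTert minus p21mTertCD and Cxcr3 in both contrasts against p21Het, none with an adjusted p under 0.05, and those of Ccr7 are the widest.

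Of the 18 ligands, 2 passed the edgeR test in at least 1 lineage. Ccl5, a ligand of Ccr1, rose in classical monocytes by 3.88 (SE 0.683, adjusted p = 0.0486) in p21mTert against p21Het, from 3.83 to 7.27 CPM to 8.04 to 150, and was 1 of 11 ligands tested there. With the replicate number as a block it was not called (3.21, edgeR adjusted p = 0.704). That block gives p21mTert_4 and p21mTert_5, whose numbers no other library has, no weight in the contrast. The same-numbered pairs correlated at 0.308, -0.0513 and 0.00473 in these cells, so the numbers did not pair the samples. For Ccl5, WT stood at 38.7 and p21mTertCD at 26.8 and 14.2, above all 3 p21Het libraries and within the range of p21mTert. No rise particular to p21mTert is shown by these values. T cell markers summed to 6.13 to 52.2 in these monocytes in p21mTert, to 4.36 to 16.4 in p21Het, to 16.5 to 22.7 in p21mTertCD and to 30.7 in WT, and those of NK cells, the class with the highest Ccl5, to 0.0 to 5.50 in every group, and their part in the Ccl5 values was not tested.

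Ppbp, a ligand of Cxcr2 best known from platelets, differed in neutrophils. It had 164 and 66 UMIs in the 2 p21mTertCD libraries (46.1 and 40.3 CPM), 0 to 3 UMIs in the 5 p21mTert libraries, 0 in WT, and 1, 3 and 59 UMIs in p21Het (0.913, 2.92 and 8.67). The edgeR changes were -6.06 (SE 0.601, adjusted p = 0.000298) for p21mTert minus p21mTertCD and 2.88 (SE 0.501, adjusted p = 0.0430) for p21mTertCD minus p21Het, and at counts this near 0 the size of the first depends on the prior count of the fit. With the replicate number as a block these were -6.47 (edgeR adjusted p = 0.0187) and 4.02 (adjusted p = 0.309), and the second was not called. The numbers did not pair the samples in neutrophils. The block also leaves fewer residual degrees of freedom and gives p21mTert_4 and p21mTert_5 no weight in the contrasts. Pf4, another platelet chemokine, stood at 53.1 and 37.3 CPM in the same p21mTertCD neutrophils, at 0.0 to 3.61 in p21mTert, at 2.74 to 16.2 in p21Het and at 1.08 in WT. The 8 markers of interstitial macrophages, a list that holds Pf4, summed to 49.5 to 385 CPM in the same neutrophils of p21mTertCD, to 8.43 to 18.5 in p21mTert, to 19.2 to 82.9 in p21Het and to 14.0 in WT, with 4 to 8 of them detected, and the part of both in the Ppbp values was not tested. No other ligand of the 18 was called by edgeR in any of the 5 lineages.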

How the data were processed

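The deposited files are raw count matrices of UMIs per gene and barcode, 1 per library; per the file headers they were written by Cell Ranger 3.1.0, while the series design text names Cell Ranger 2.3 and mm10. The counts are not normalized, and barcodes outside the study's stated limits were removed here. Classes were gated by 8 markers each, no doublet caller was run, and ambiguous barcodes were left out of all classes. UMIs were summed per library and class, and each gene was divided by the sum and multiplied by 1000000. Differences between classes or states used log2(CPM + 1) and an exact 2-sided sign-flip permutation test over the 11 libraries. Genotypes were compared on the summed counts with edgeR 4.0.16 (R 4.3.3, quasi-likelihood test, filterByExpr, TMM, Benjamini-Hochberg over all genes tested) over the 10 replicated libraries, leaving out libraries with under 20 cells of a lineage, with DESeq2 1.42.0 as an alternative. Replicate numbers were checked by correlating deviations from the group means of same-numbered libraries; they met the criterion (each of 3 pairs above 0.1) only for p21mTert and p21Het in non-classical monocytes (0.254, 0.118 and 0.108), and both libraries numbered 1 belong to the first deposit. A block on the replicate number leaves fewer residual degrees of freedom. It also gives p21mTert_4 and p21mTert_5, whose numbers no other library has, no weight in the contrasts. Levels are given from at least 5 cells. Total depth was 42038434 to 85988955 UMIs per library. Nothing says that libraries of a group are separate animals, so p-values measure the spread among these samples, which may be technical. Counts were tested on simulated data for T cells, p21mTert minus p21Het, over 12197 genes: 53% of 100 genes changed by 1 and 81% of 100 changed by 2 (log2) were called, and 0.0583% of 11997 unchanged genes. Named genes are the 9 receptors, listed ligands that were called, listed receptors and ligands described at their highest class, and for each receptor the 3 genes most alike with at least 10 CPM in a class. The members, their lineages and the lists were chosen with earlier results of these data known. Some listed genes are not reported here. Python 3.11.15, numpy 2.4.6, pandas 2.3.3, scipy 1.17.1 and matplotlib 3.10.9 were used.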

Additional observations from a re-analysis of the deposited data

Results flagged for a closer look

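Cxcr3 summed over all leukocytes stood at 31.8 CPM in p21mTert_4, apart from the other 4 p21mTert libraries, whose values lay between 24.6 and 26.3. The gap to the nearest of them was 0.760 of the range of the group. Of 19 such tests this was the 1 that passed, and chance gives about 1 in 20.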

How the results depend on the processing

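The 14 differences between classes or states kept their direction and an exact p under 0.05 in all 266 alternatives run (gates, barcode filters, thinning, pseudocounts, the later deposit alone, each library left out). Their lineages and marker lists were chosen with earlier results of these data known, and the alternatives reuse the same libraries. Of the 27 genotype changes of a receptor in its lineage, none called by edgeR, 514 alternatives kept direction and call, 49 changed sign in 17 results and 4 became calls; the cause was not tested. For Ccr1 in neutrophils, p21mTert minus p21mTertCD was 0.0093 with DESeq2 size factors, 0.0099 with DESeq2, 0.0087 with only the 2 groups, 0.0061 with deposit as a term and 0.024 in the later deposit alone. For Ccr6 in B cells, p21mTert minus p21Het was 0.0022 with a 15000 UMI limit, 0.00060 with DESeq2 size factors and 0.011 without a filter on low counts. Cx3cr1 in non-classical monocytes, p21mTert minus p21mTertCD, was 0.024 with deposit as a term and 0.044 in the later deposit, and Cxcr5 in B cells, p21mTert minus p21Het, 0.0030 and 0.016. Ccr2 in classical monocytes, p21mTert minus p21mTertCD, became a call without a filter on low counts (-0.56, edgeR adjusted p = 0.00187), and Cxcr3 in T cells, p21mTertCD minus p21Het, with DESeq2 (0.59, adjusted p = 0.0266). With the replicate number as a block, p21mTert minus p21Het was 0.20 for Ccr6 in B cells and -0.22 for Cxcr6 in T cells, neither called. Only in non-classical monocytes did all 3 same-numbered pairs of p21mTert and p21Het correlate above 0.1; over the other lineages and contrasts the correlations ran from -0.352 to 0.430, and the numbers did not pair the samples. With the block edgeR called no receptor in the 5 lineages. Its counts of genes fell in 13 of the 15 comparisons, for example from 36 to 0 in non-classical monocytes (p21mTert minus p21mTertCD; 620 at an unadjusted p under 0.05), from 11 to 0 in classical monocytes (p21mTert minus p21Het; 513) and from 39 to 5 in neutrophils (p21mTert minus p21mTertCD). The block uses more coefficients on the same 10 libraries and gives p21mTert_4 and p21mTert_5 no weight in the contrasts. The part of this in the lower counts was not tested. Leaving out 1 library moved some changes in size without a change of sign. For p21mTertCD minus p21Het, Ccr2 in classical monocytes ran from 0.12 to 0.55 and Cxcr2 in neutrophils from 0.11 to 0.45. The changes that did change sign had the following ranges. For Ccr1, p21mTert minus p21mTertCD ran from -0.13 to 0.14 and p21mTertCD minus p21Het from -0.020 to 0.25. Ccr2, p21mTert minus p21Het, ran from -0.40 to 0.029, and Cxcr2 from -0.16 to 0.20. Ccr6 ran from -0.20 to 0.33 (p21mTert minus p21Het), -0.086 to 0.65 (p21mTert minus p21mTertCD) and -0.65 to 0.19 (p21mTertCD minus p21Het), Cxcr5 from -0.14 to 0.064, -0.31 to 0.028 and -0.061 to 0.28, and Cxcr6 from -0.15 to 0.22, -0.61 to 0.31 and -0.30 to 0.63 in that order. Cx3cr1 ran from -0.34 to 0.40 and -0.088 to 0.65, and Ccr7 in T cells from -0.38 to 4.35 and -4.49 to 0.24, in the 2 contrasts with p21mTertCD. DESeq2 called more genes than edgeR. In the order of contrasts given above for Ccr6, the edgeR and DESeq2 counts were 2 and 16, 6 and 164, and 11 and 325 in T cells. In the first 2 of these contrasts they were 11 and 38 and 13 and 48 in classical monocytes, in the last 2 they were 1 and 13 and 0 and 1 in B cells, and in the first they were 0 and 22 in neutrophils and 1 and 5 in non-classical monocytes. Ccr6 and Cxcr3 had the fewest UMIs of the receptors, with 9234 and 9152 in all.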
